A study of Mus musculus with 10 samples.

Results

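The Brinp genes (Brinp1, Brinp2 and Brinp3) and the Mpped genes (Mpped1 and Mpped2) are families of paralogues transcribed mainly in the nervous system, and they make up 5 of the 53379 genes counted. They were picked by symbol because earlier results of the same comparison showed Brinp3 and Mpped1 changing in opposite directions, so the differences between genotypes given here for these genes describe that choice. Calls for them from the fit over all genes are given only as a description, with no p. Each library held RNA from 400 sorted cells of the neocortex of a single E16 mouse embryo. The 3 cKO embryos (cKO-Cdkn1c-MADM-7) carried a Cdkn1c-flox allele from both parents, MADM cassettes on chromosome 7 and Emx1-Cre, and the 7 control embryos (control MADM-7) carried the same cassettes and Emx1-Cre without the flox alleles, all in a mixed C57BL/6J, CD1 background. Emx1-Cre is active in dorsal telencephalic progenitors, and MADM (mosaic analysis with double markers) labels cells of that lineage with GFP, tdT or both, which were sorted together, so every value is an average over progenitors and neurons of the labelled lineage.

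BRINP proteins take their name from the BMP and retinoic acid signals that induce them in neural cells, and they carry a MACPF domain, the fold also found in perforin and in complement proteins. BRINP1 has been linked to the restraint of cell cycle progression in neural precursors, and the family is best known from postmitotic neurons. MPPED1 and MPPED2 hold a metallophosphoesterase domain, the fold of many phosphatases and nucleotide-cleaving enzymes, and both are known chiefly from brain.

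The members lie on 4 chromosomes of GRCm38 in the GENCODE M21 annotation. Brinp1 (ENSMUSG00000028351.5) is at chr4:68761514-68954397 on the minus strand, Brinp2 (ENSMUSG00000004031.13) at chr1:158245269-158356326 on the minus strand and Brinp3 (ENSMUSG00000035131.14) at chr1:146494760-146902472 on the plus strand. Mpped1 (ENSMUSG00000041708.12) is at chr15:83779467-83858494 and Mpped2 (ENSMUSG00000016386.15) at chr2:106693269-106868356, both on the plus strand. All 5 are protein-coding. The longest coding sequences held 760 codons in Brinp1, 783 in Brinp2 and 766 in Brinp3, each in a transcript of 8 exons, against 326 codons in Mpped1 and 294 in Mpped2, each in a transcript of 7 exons.

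The aligner kept only reads with a single alignment, so a read could be given to a family member only where the paralogues differ. The longest run of bases shared exactly by each pair shows how far apart the members are at their most alike coding stretch. The sequences below are from GENCODE M21 transcripts, written 5′ to 3′ on the coding strand with 25 bases on each side, and the capitals mark the shared run. For Brinp2 (chr1:158246912-158246989, exon 8) and Brinp3 (chr1:146901326-146901403, exon 8) the run was 28 bases long.
Brinp2: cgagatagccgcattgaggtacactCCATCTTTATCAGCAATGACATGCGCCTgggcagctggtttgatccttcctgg
Brinp3: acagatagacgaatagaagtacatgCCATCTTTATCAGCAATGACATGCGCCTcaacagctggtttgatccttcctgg
For Mpped1 (chr15:83854443-83854509, exon 6) and Mpped2 (chr2:106864686-106864752, exon 6) it was 17 bases long.
Mpped1: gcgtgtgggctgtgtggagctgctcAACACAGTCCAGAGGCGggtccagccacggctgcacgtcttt
Mpped2: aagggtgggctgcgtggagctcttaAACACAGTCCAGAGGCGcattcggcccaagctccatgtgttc
For Brinp1 (chr4:68841221-68841289, exon 3) and Brinp2 (chr1:158267834-158267902, exon 3) it was 19 bases long.
Brinp1: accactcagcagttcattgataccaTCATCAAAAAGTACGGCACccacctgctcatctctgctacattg
Brinp2: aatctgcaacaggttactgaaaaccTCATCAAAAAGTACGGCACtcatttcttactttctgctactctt

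Brinp1 and Brinp3 shared at most 16 bases. Over whole transcripts, untranslated parts included, no longer run was shared within either family. Brinp2 and Brinp3 were the most alike Brinp pair, with 70.9% of aligned coding bases identical, against 62.0% for Brinp1 and Brinp2 and 60.9% for Brinp1 and Brinp3. Mpped1 and Mpped2 were identical at 71.5% of aligned coding bases. In the 250 bases upstream of RefSeq transcription starts (GRCm38.p6), 4 members had an entry. The first Mpped1 start had 88.8% G or C and 47 CpG dinucleotides, a number reached by 0.25% of the 32851 windows listed, whereas the first Brinp3 start had 44.8% G or C and 4 CpG dinucleotides, close to the median of 6. The starts of a gene differed among themselves: the second Mpped1 start had 46.8% G or C and 2 CpG dinucleotides, the 3 Brinp3 starts had 4, 3 and 8, and the 3 Mpped2 starts had 7, 25 and 8. The single Brinp1 start had 11.

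Libraries held between 1738220 and 3362487 reads on genes. Cdkn1c, the deleted gene, stood at 7.46 ± 3.43 CPM (SD, n = 3) in cKO and 95.9 ± 20.1 CPM (SD, n = 7) in controls, so the libraries carried the genotypes of their labels. CPM, the reads of a gene relative to the library total, are scaled here by edgeR's TMM factors. All 20 projection neuron markers examined were detected, which does not by itself set cortical cells apart from other neurons. Microglial, endothelial and mural cell markers were low and reached their highest sums in cKO libraries. Microglial markers summed to 2.36 to 33.9 CPM in cKO and 0 to 6.11 CPM in controls, and endothelial and mural cell markers to 6.41 to 22.5 CPM in cKO and 3.56 to 8.73 CPM in controls. Csf1r and C1qa, of microglia, and Cldn5, of endothelium, were called higher in cKO once genes with few reads were kept in the fit. Their part in the results for the members was not tested. Red blood cell markers reached 2310 CPM in a cKO library and 1822 CPM in a control library, and the groups overlapped.

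Brinp3 was higher and Mpped1 lower in all 3 cKO libraries than in any control, and the other 3 members overlapped between genotypes. All 5 genes averaged 10 reads or more per library and were kept in the fit, but Brinp3 passed only through the cKO libraries, with a mean of 54.3 reads there and 5.57 reads in controls. In the edgeR fit over all 11551 genes tested, 1 member was called higher (Brinp3) and 1 lower (Mpped1) at an adjusted p under 0.05. Over all genes tested 3.15% were called, 2.27% higher and 0.883% lower in cKO, and 6.00% of genes had no overlap between the groups, 3.32% with cKO above and 2.68% with cKO below. Since these genes were chosen on this comparison, nothing is read from their count against these shares.

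Brinp3 had 78, 55 and 30 reads in cKO replicates 1 to 3. In controls it had 5, 10, 6, 8, 3, 6 and 1 reads. Every cKO library thus lay above every control, and the control level rested on few reads. After scaling, Brinp3 stood at 26.3, 21.7 and 12.7 CPM in the cKO libraries. In controls it ranged from 0.356 to 3.57 CPM with a median of 1.81 CPM. The lowest cKO library, replicate 3, was still well above the highest control. The means were 20.2 ± 6.90 CPM (SD, n = 3) and 2.00 ± 0.974 CPM (SD, n = 7), a 10.1-fold difference, and the fitted log2 fold change was 3.32 (SE 0.43). In controls the coefficient of variation of 48.7% was close to the 42.4% that counting error alone gives at a mean of 5.57 reads, so differences among control embryos could not be resolved at this depth. The gene overlaps 4 annotated genes, 3 of them on the opposite strand, but adding the strand-specific counts moved its total only from 202 to 208 reads.

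Brinp1 and Brinp2 showed no such separation. Brinp1 had 37, 33 and 33 reads in cKO and 19 to 66 reads in controls, with a median of 41. Its level was 13.2 ± 0.773 CPM (SD, n = 3) in cKO and 15.0 ± 5.84 CPM (SD, n = 7) in controls, with a log2 fold change of -0.20 (SE 0.35). The 3 cKO libraries sat in the middle of the control range, with 3 controls below them and 4 above. Brinp2 had 117, 66 and 76 reads in cKO and 55 to 141 reads in controls, with a median of 98. It stood at 32.6 ± 6.74 CPM (SD, n = 3) in cKO and 34.4 ± 3.96 CPM (SD, n = 7) in controls, with a log2 fold change of -0.08 (SE 0.21). The lowest cKO library of Brinp2, replicate 2, was below every control, and the other two lay within the control range.

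Mpped1 was the most abundant member in controls. In cKO 555, 379 and 487 reads fell on it, and in controls 3119, 1909, 2387, 2046, 756, 2238 and 1936 reads. The levels were 187, 149 and 207 CPM in cKO against 440 to 1132 CPM in controls, with a control median of 689 CPM. Both extremes of the control range came from single embryos, control replicate 1 at the top and control replicate 5 at the bottom, and all 7 were above the highest cKO library. The means were 181 ± 29.1 CPM (SD, n = 3) and 730 ± 208 CPM (SD, n = 7), so cKO cells held 24.8% of the control level, with a log2 fold change of -2.02 (SE 0.21). The coefficient of variation over controls was 28.5%, where counting error alone gives 2.21%.

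Mpped2 had 462, 615 and 477 reads in cKO and 437 to 972 reads in controls, with a median of 705. Its levels were 156, 242 and 202 CPM in cKO and 189 to 315 CPM in controls. Only cKO replicate 1 was below every control, and 5 of the 7 controls were above all cKO libraries. The means were 200 ± 43.3 CPM (SD, n = 3) and 253 ± 38.3 CPM (SD, n = 7), with a log2 fold change of -0.34 (SE 0.17), and the gene was not called. Thus no family held members called in opposite directions: the opposite changes were those of Brinp3 and Mpped1, from different families.

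**Figure D1:**
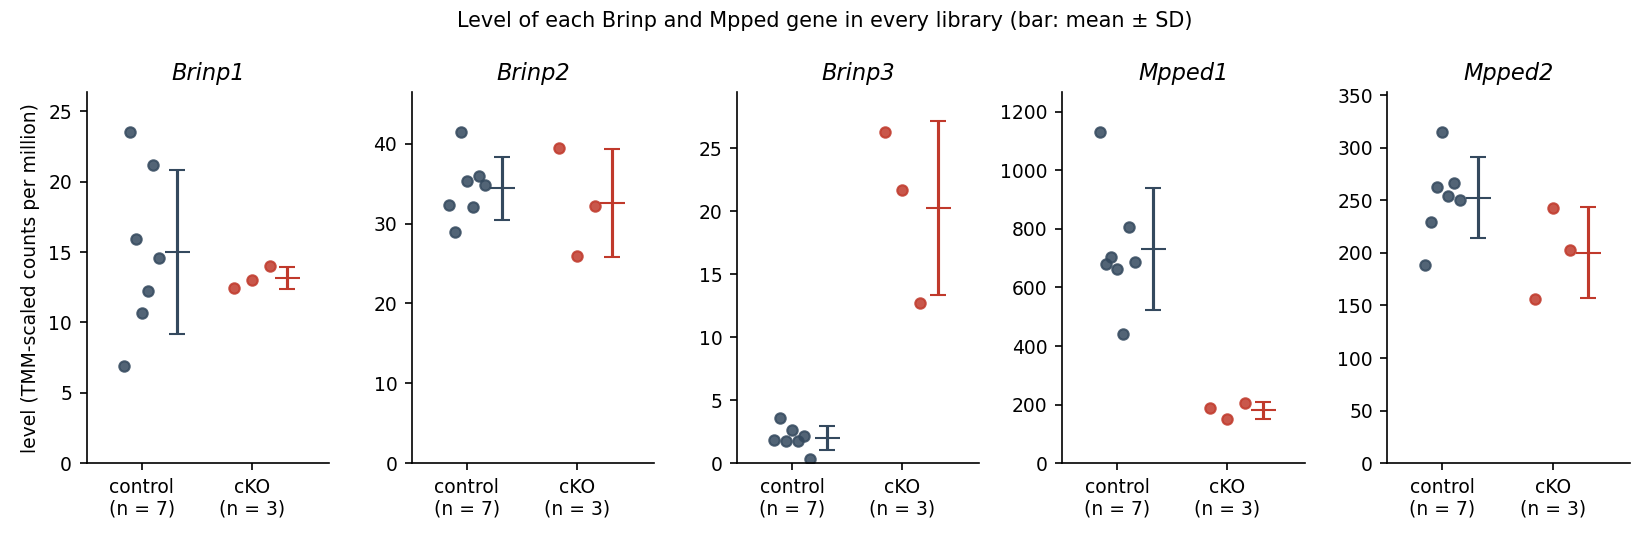
Level of each member in every library, in TMM-scaled CPM on linear axes that start at 0, with controls in dark blue and cKO in red, and the mean ± SD beside the points. Brinp3 lay above all controls and Mpped1 below all controls in the 3 cKO libraries, and the points of Brinp1, Brinp2 and Mpped2 overlapped between genotypes.

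Paralogues were also set against each other within each library, as differences of log2(CPM + 1), in which the pseudocount shrinks ratios of genes at low levels. The log2 ratio of Mpped1 to Mpped2 was 0.26, -0.69 and 0.03 in cKO and 0.79 to 2.58 in controls, with no overlap. The means were -0.13 ± 0.50 (SD, n = 3) and 1.49 ± 0.56 (SD, n = 7), a difference of -1.63. For Brinp3 over Brinp1 the ratio was 1.02, 0.70 and -0.13 in cKO and between -3.52 and -1.49 in controls. The means of 0.53 ± 0.59 (SD, n = 3) and -2.40 ± 0.68 (SD, n = 7) were 2.93 apart. For Brinp3 over Brinp2 the cKO values of -0.57, -0.25 and -1.28 lay above the control range of -4.73 to -2.71, and the means also differed by 2.93. With a pseudocount of 0.5 CPM both Brinp3 differences were 3.20. The ratio of Brinp1 to Brinp2, the pair without a called member, had means of -1.23 in both groups.

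**Figure D2:**
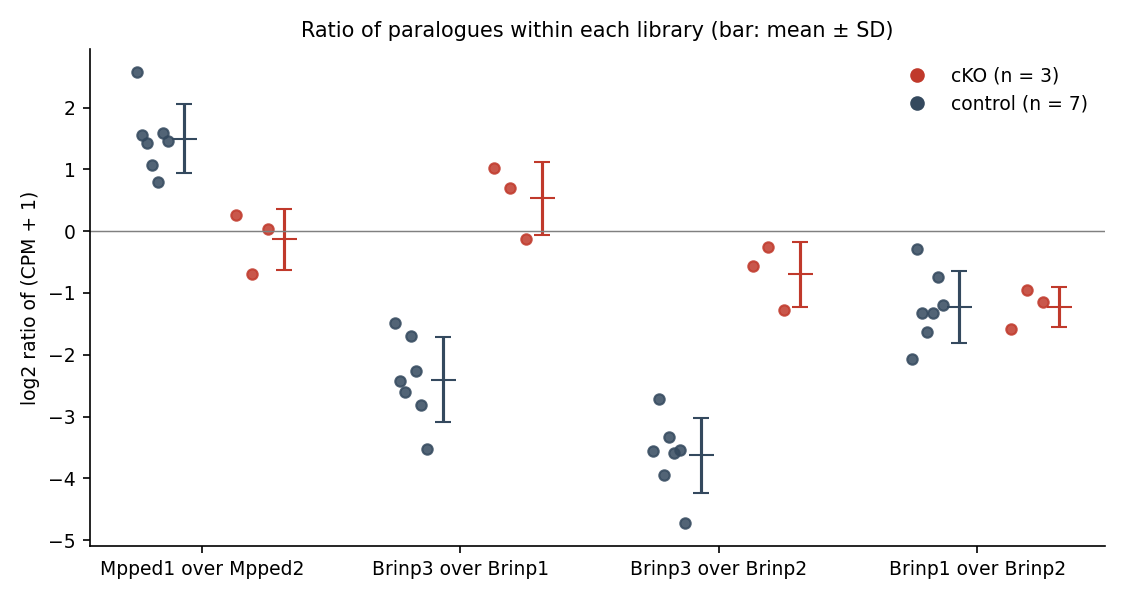
Difference in log2(CPM + 1) between paralogues in every library, with the mean ± SD beside the points, controls in dark blue and cKO in red. The genotypes separated for Mpped1 over Mpped2 and for Brinp3 over either paralogue, and overlapped for Brinp1 over Brinp2.

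Levels can be set side by side between genes only per length, so CPM were divided by the length of merged exons in kilobases (RPKM). In controls, Mpped1 stood at 170 ± 48.5 RPKM, Mpped2 at 73.7 ± 11.2 RPKM, Brinp2 at 3.92 ± 0.452 RPKM, Brinp1 at 2.43 ± 0.945 RPKM and Brinp3 at 0.286 ± 0.139 RPKM (SD, n = 7 for each). The control values also form part of the comparison on which Mpped1 and Brinp3 were chosen, so the 7 pairs that hold either gene are given with no test. In each of those pairs the order was the same in 7 of 7 embryos. Mpped1 exceeded Mpped2 by 1.17 ± 0.56 on the log2(RPKM + 0.1) scale, and Brinp1 exceeded Brinp3 by 2.72 ± 0.76 (SD over 7 embryos), at few Brinp3 reads. The other 3 pairs, among genes not called between genotypes, were tested over the control embryos, with p adjusted over these 3. Mpped2 exceeded Brinp2 by 4.19 ± 0.21 and Brinp1 by 4.95 ± 0.55 in 7 of 7 embryos (two-sided exact sign-flip permutation test, adjusted p = 0.0234 for each, from the smallest p that 7 embryos allow, 0.0156). The pair of Brinp2 and Brinp1 differed by 0.76 ± 0.60 in 6 of 7 embryos (exact permutation, adjusted p = 0.0313). In control replicate 2, Brinp1 stood above Brinp2. This last order failed the threshold when any control other than replicate 2 was left out (exact permutation, adjusted p = 0.0625 each time).

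By merged exon length, the order in cKO was different at both ends. Mpped1 stood at 43.6, 34.8 and 48.1 RPKM, below Mpped2 at 45.5, 70.7 and 59.1 RPKM, in every cKO library, whereas it was above Mpped2 in every control. With the length of the longest transcript in place of merged exons, Mpped1 was above Mpped2 in cKO replicate 1, at 57.1 against 54.7 RPKM, and below it in the other two. Brinp3 stood at 3.76, 3.09 and 1.82 RPKM in cKO, above Brinp1 in replicates 1 and 2 and below it in replicate 3. As a share of the RPKM of its family, Brinp3 made up 36.6%, 37.9% and 23.4% in cKO and 0.795% to 6.69% in controls. Mpped1 made up 48.9%, 33.0% and 44.9% of its family in cKO and 58.0% to 82.7% in controls. The summed level of the Mpped family lay outside the control range, at 101 ± 10.0 RPKM (SD, n = 3) against 244 ± 42.8 RPKM (SD, n = 7), while the summed Brinp level, 8.73 ± 1.35 RPKM against 6.64 ± 1.05 RPKM, overlapped.

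**Figure D3:**
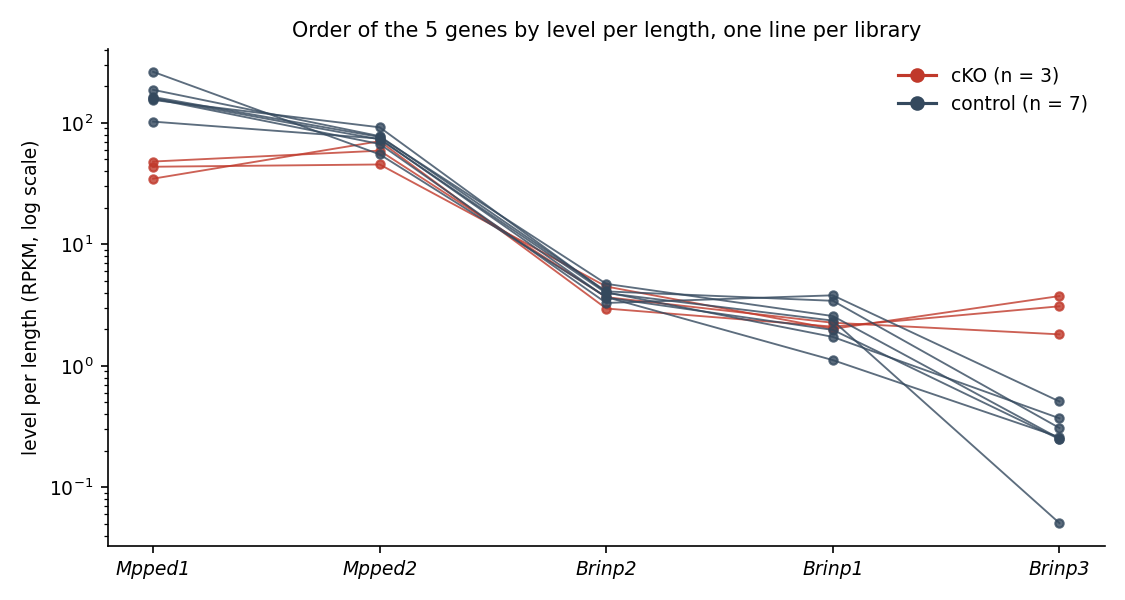
Level per length (RPKM, log axis) of the 5 members, ordered by their control mean, with a line for each library, controls in dark blue and cKO in red. The lines run from 170 RPKM for Mpped1 to 0.286 RPKM for Brinp3 as control means, and the red lines are lower at Mpped1 and higher at Brinp3.

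Among controls, the members did not vary together in a way that these 7 embryos could resolve. Of 22 relations, among the 4 members with at least 20 reads on average in controls and between each of them and 4 marker scores, none passed at an adjusted p under 0.05. The lowest unadjusted p was that of Mpped1 with the score of radial glial progenitor markers, genes of the dividing cells of the ventricular zone, and only this p was under 0.05 before adjustment (Pearson r = -0.86, exact permutation p = 0.0173, adjusted p = 0.38, and Spearman rho = -0.857, exact permutation p = 0.0238, adjusted p = 0.524, n = 7). Without the 2 controls farthest from the median of Mpped1, r was -0.26, so the relation rested on them. Mpped1 and Mpped2 had r = -0.551 (Spearman rho = -0.286, exact permutation p = 0.187 and 0.556, adjusted p = 0.785 and 1, n = 7) and r = -0.0986 without the 2 farthest controls.

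The genes most like each member were taken by Pearson r of log2(CPM + 1) as a description, since with 7 embryos high values of r are common among the many genes that share the same libraries. Over the 7 controls, Mpped1 was most like Eml1 (r = 0.986), a microtubule-associated protein gene, then Car11, Fxyd6, Lrrc20 and Hsp90ab1. Eml1 was lower in cKO, at 13.5 CPM against 38.7 CPM (log2 fold change -1.54, SE 0.35, edgeR adjusted p = 0.0156), and lost this call without cKO replicate 1 or without cKO replicate 3. Car11, Fxyd6, Lrrc20 and Hsp90ab1 were not called, and Hsp90ab1 stood at 2371 CPM in cKO and 2364 CPM in controls. Mpped2 was most like Zfp703 (r = 0.978), Srrm1, Ssh1, Fzd2 and Cdkn2d, Brinp1 most like Dcaf6 (r = 0.966), Tmem250-ps, Trmt12, Brd8 and Bnip3l, and Brinp2 most like Pcgf6 (r = 0.941), Scamp3, Pik3c3, Pde4d and Gdap2. None of these 15 genes was called between genotypes. Brinp3 had too few reads in controls for this, so its likeness was taken over all 10 libraries, where the difference between genotypes sets it. The leading genes were Nr2f2 (r = 0.96), which encodes the transcription factor COUP-TFII, the amino acid transporter genes Slc7a5 and Slc7a3, the protocadherin gene Pcdh11x and Gtse1, all of them called higher in cKO.

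The wider families and the pathways after which BRINP proteins are named were counted over the fit of all genes. Of 9 other MACPF-domain genes, 5 had no read in any library and only Astn1 passed the filter. Astn1, which encodes astrotactin 1, a protein of glial-guided neuronal migration, stood at 75.0 ± 27.9 CPM in cKO and 75.9 ± 22.7 CPM in controls (edgeR adjusted p = 0.976). Of 12 other metallophosphoesterase genes, 9 were tested and none was called by edgeR, DESeq2 or limma-voom, with 1 at an unadjusted p under 0.05. Vps29, the retromer subunit with this fold, had the most reads and stood at 246 ± 57.9 CPM in cKO and 247 ± 25.8 CPM in controls (edgeR adjusted p = 0.987). Smpdl3a, a sphingomyelinase-like phosphodiesterase gene named here after its value was seen, was called without cKO replicate 1 (log2 fold change 1.47, edgeR adjusted p = 0.0106).

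Of 20 retinoic acid pathway genes, 10 were tested and 1 was called higher. Rxrg, which encodes a retinoid X receptor, stood at 13.1 ± 5.65 CPM in cKO and 2.39 ± 3.41 CPM in controls (log2 fold change 2.70, SE 0.70, edgeR adjusted p = 0.0239). Rxrg passed the minimum of 10 reads only through the cKO libraries, with a mean of 34.3 reads there and 5.43 reads in controls. The groups overlapped, and the call was lost with DESeq2 (adjusted p = 0.332) and without cKO replicate 1, cKO replicate 3 or control replicate 3. The median log2 fold change of the 10 genes was 0.50, against 0.01 over all genes tested. Of 25 BMP pathway genes, 18 were tested, 1 was called higher and 1 lower. These were a pair of transcriptional targets of BMP signals: Id3 rose from 80.6 ± 25.9 CPM in controls to 188 ± 51.6 CPM in cKO (edgeR adjusted p = 0.00516), and Id2 fell from 1175 ± 133 to 743 ± 81.1 CPM (edgeR adjusted p = 0.00721). The median of the 18 genes was 0.11 on the log2 scale.

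The position of the members in the genome was also examined. Of 119 annotated genes within 1 Mb of a member, 32 were tested and none was called by edgeR, DESeq2 or limma-voom, with 5 at an unadjusted p under 0.05. None of the 10 genes near Brinp3 had enough reads to be tested, and 19 of the 32 lay near Mpped1. The nearest tested genes to Mpped1 were Efcab6, 8.22 kb to the right (log2 fold change -0.55, SE 0.66, edgeR adjusted p = 0.74), and Scube1, 54.4 kb to the left (-0.75, SE 0.28, edgeR adjusted p = 0.168). For Mpped2 they were BB218582, 42.9 kb to the left, and Arl14ep, 94.2 kb to the right, and neither was called. Astn1 lies 5.95 kb from Brinp2, so the only other MACPF-domain gene tested is also its neighbour. Cryzl2, 753 kb from Brinp2 on the other side, and Gm11223, 971 kb from Brinp1, were not called either. In the same window of Brinp2, 2810025M15Rik, named after its value was seen, was called without cKO replicate 1 (log2 fold change 1.03, edgeR adjusted p = 0.00645).

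Cell type markers that moved with the genotype are given beside the members, since in bulk samples fewer cells of a type and less RNA per cell cannot be told apart. Of 9 Cajal-Retzius cell markers, genes of the early neurons of the marginal zone, 7 were tested and called higher in cKO. Lhx1 and Cacna2d2 were tested only because of their cKO reads, with means of 3.29 and 6.14 reads in controls against 41.3 and 33.7 reads in cKO, so 5 of these calls concern genes that averaged 10 reads or more in controls as well. Reln, the secreted protein of these cells, stood at 297 ± 60.9 CPM in cKO (SD, n = 3) and 44.0 ± 30.8 CPM in controls (SD, n = 7), with an edgeR adjusted p of 0.000949, and Trp73, Calb2, Lhx1, Lhx5, Cacna2d2 and Ndnf had log2 fold changes between 2.47 and 3.68. DESeq2 called 5 of the 7, without Trp73 and Ndnf, and Cacna2d2 lost its call without cKO replicate 1. The summed level of the 9 markers was 591 to 732 CPM in cKO and 16.3 to 182 CPM in controls, with no marker at 0 reads throughout. Brinp3 was highest in cKO replicate 1, whereas the summed markers were highest in cKO replicate 3, where Brinp3 was lowest. Among controls, replicates 2 and 4 had the highest sums, 182 and 170 CPM, and the highest Brinp3 levels, 3.57 and 2.59 CPM. Control replicate 7 had the next highest sum, 111 CPM, and the lowest Brinp3 level, 0.356 CPM. These Brinp3 levels in controls rest on few reads. The part of the Cajal-Retzius cell markers in the Brinp3 result was not tested.

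Of 20 projection neuron markers, all tested, 5 were called lower and none higher in cKO. The median log2 fold change of the 20 was -0.58, against 0.01 over all genes tested. Markers not called went both ways, with log2 fold changes from -0.80 to 0.45. The highest was that of Slc17a6, a vesicular glutamate transporter gene named after its value was seen. Without cKO replicate 1 the counts were 8 lower and 1 higher (Slc17a6). Without cKO replicate 3 they were 3 lower and 0 higher, and DESeq2 called 8 lower. Neurod6, a transcription factor gene of postmitotic pyramidal neurons, fell from 2305 ± 229 CPM in controls to 1173 ± 228 CPM in cKO (log2 fold change -0.98, SE 0.13, edgeR adjusted p = 0.000471). Neurod2, Cux2 and Rbfox1 fell by 0.75, 1.07 and 0.82 on the log2 scale. Cux2 and Rbfox1 lost the call without cKO replicate 2 or without cKO replicate 3. The summed level of the list was 7751 to 8820 CPM in cKO and 9957 to 12271 CPM in controls, without overlap, and none of the 20 was at 0 reads. Tubb3 and Neurod6 had the highest means of the list and so weigh most in this sum. Tubb3, a tubulin gene named after its value was seen, stood at 2992 CPM in cKO and 4533 CPM in controls and was not called. The part of the projection neuron markers in the Mpped1 result was not tested.

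**Figure D4:**
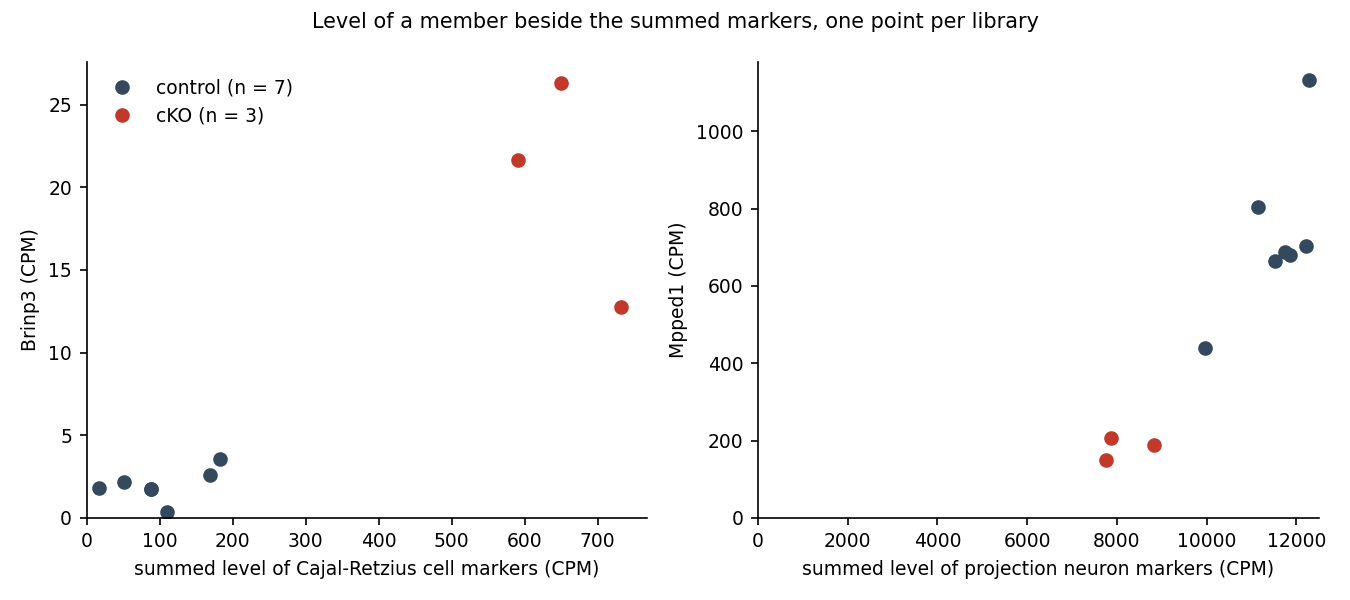
Brinp3 against the summed Cajal-Retzius cell markers, and Mpped1 against the summed projection neuron markers, in CPM on axes that start at 0, with a point for each library, controls in dark blue and cKO in red. The genotypes formed separate clusters in both panels. Within the 3 cKO libraries Brinp3 was lowest where the Cajal-Retzius sum was highest, at 732 CPM. Among controls, Brinp3 was highest where this sum was highest, at 182 CPM.

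None of 12 radial glial progenitor markers tested and none of 7 intermediate progenitor markers was called by edgeR, DESeq2 or limma-voom (3 and 4 at an unadjusted p under 0.05). Fabp7 and Elavl4 had the most reads of these lists, with 936 ± 377 against 985 ± 292 CPM and 332 ± 55.6 against 267 ± 21.3 CPM in cKO and controls. Insm1 was called lower without cKO replicate 2 and Neurog2 without control replicate 1 or with no filter on low counts. Emx2 was called higher with no filter (log2 fold change 0.89, edgeR adjusted p = 0.0179). In the main fit Emx2 stood at 57.8 CPM in cKO and 31.2 CPM in controls, without overlap (edgeR adjusted p = 0.091). Insm1, Neurog2 and Emx2 were named after their values were seen. Of 9 interneuron markers tested, Dlx2 was called higher (log2 fold change 1.63, edgeR adjusted p = 0.0354) and Npy lower (-3.64, edgeR adjusted p = 0.0205), and 8 of 17 alternative settings lost the Dlx2 call. Npy lost it with limma-voom and without cKO replicate 1 or cKO replicate 2. Neither of 2 tested cortical hem and choroid plexus markers nor any of 5 tested red blood cell markers was called by edgeR, DESeq2 or limma-voom (1 at an unadjusted p under 0.05 in each list). Ttr, the transthyretin gene of choroid plexus, stood at 30.9 ± 24.6 CPM in cKO and 5.65 ± 7.95 CPM in controls (edgeR adjusted p = 0.0753) and was called higher without cKO replicate 2 or without control replicate 2. Hba-a1, a globin gene, stood at 339 ± 567 and 174 ± 289 CPM. With no filter on low counts, edgeR called Hba-a1, Hbb-bt, Hbb-bs and Alas2 higher and Hba-a2 lower, the last at a log2 fold change of -5.31 (edgeR adjusted p = 1.05e-19). Hba-a1 and Hba-a2 are near-identical copies, so how the counting split their reads is uncertain. No microglial, endothelial or mural cell marker had enough reads to be tested.

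The libraries fell into 2 sets by the share of uniquely aligned reads outside genes, under 10% in cKO replicate 3 and controls 1, 2, 6 and 7, and at least 10% in the others. Within the lower set Brinp3 stood at 12.7 CPM in cKO against a control mean of 1.97 CPM, and within the higher set at 24.0 CPM against 2.04 CPM. Mpped1 stood at 207 against 827 CPM in the lower set and at 168 against 602 CPM in the higher set. The groups did not overlap for either member, so the direction within each set was fixed by that, and with 1 and 2 cKO libraries no test was made there.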

How the data were processed

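The authors merged technical replicates, aligned reads to GRCm38 with STAR 2.5.0c, kept single alignments and counted reads on GENCODE M16 genes, and they deposited raw counts per gene. Libraries were made with Smart-Seq2 from polyadenylated RNA. Reads are not independent molecules, so the counting error given covers counting only. Sense and antisense counts were equal in size, so the column without regard to strand was used. Groups were taken from the labels, which name single embryos as replicates. Symbols and positions came from GENCODE M21, which matched 50604 of 53379 genes with version and 2670 without. The members and lists, and the Cajal-Retzius list in particular, were chosen with earlier results of these data known.

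Genes averaging 10 reads or more were fitted with edgeR 4.0.16 in R 4.3.3 (TMM, glmQLFit with legacy = FALSE, genotype alone), with Benjamini-Hochberg adjustment and a threshold of 0.05, after a check on simulated data. Common biological variation was 28.3%. SE values come from the information matrix of each fit times its quasi-dispersion. RPKM used merged exons, and pseudocounts were 1 CPM and 0.1 RPKM. Correlations used 5040 orders of the controls and sign-flip tests 128 patterns. Coding sequences were aligned end to end with Biopython 1.88. Named genes were the members, Cdkn1c, called genes of each list (if over 6, those of smallest p) or else its most abundant gene, called and nearest genes within 1 Mb, and the 5 genes most like each member. Libraries of a genotype differed by more than counting error (chi-square per gene 4.91 to 23.7), so each counted as its own sample. Alternatives were DESeq2 1.42.0, limma-voom (limma 3.58.1), DESeq2 size factors, no filter, summed strand columns, a replicate block, a covariate for reads outside genes, lengths, pseudocounts and each library left out. Alternatives for the genes within 1 Mb, and the adjustment of control levels over 3 pairs in place of 10, were chosen after seeing the data. Some genes counted in the lists are not reported here by name.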

Additional observations from a re-analysis of the deposited data

Results flagged for a closer look

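Dixon's test of the highest and lowest of the 7 controls was applied to 27 quantities, the level of each member, the paralogue ratios and family shares, Cdkn1c and the summed level of each list. No member, ratio or share stood apart. The summed CPM of BMP pathway genes in control replicate 6, 1561 CPM, was low against the next control at 1816 CPM, with a gap of 0.573 of the range, just past the critical value for 7 samples. Chance gives about 1 such case in 20.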

How the results depend on the processing

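Brinp3 and Mpped1 were the 2 members called in every setting run, which is no support, since they were chosen on this comparison. Their log2 fold changes ran from 3.07 to 3.55 and from -2.12 to -1.89 when libraries were left out in turn, and the Brinp3 difference on log2(CPM + 1), not a fitted value, was 2.33 within the libraries with under 10% of reads outside genes. Brinp2, not called, ran from -0.26 to 0.05. The paralogue differences ran from -1.83 to -1.35 for Mpped1 over Mpped2, from 2.69 to 3.26 for Brinp3 over Brinp1, from 2.71 to 3.22 for Brinp3 over Brinp2 and from -0.14 to 0.18 for Brinp1 over Brinp2. The level of Brinp2 over Brinp1 ran from 0.61 to 0.92, and with 6 controls the exact test could not pass the threshold unless all embryos had the same sign. No correlation passed in any setting.

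Over all genes, 262 higher and 102 lower calls became 701 and 260 with no filter, 141 and 72 with the replicate block, 300 and 210 with DESeq2, and 187 to 268 and 83 to 156 without each library, 156 being the lower count without cKO replicate 2. List genes called higher and lower were 23 and 15 with no filter, and 8 to 12 and 5 to 9 without each library. Genes called within 1 Mb were 2 with no filter (2810025M15Rik and Gm37861) and 0 to 1 without each library. The cause of these shifts was not tested. Same-numbered libraries of the genotypes did not deviate together (correlations 0.05, -0.10 and -0.21), so the numbers do not pair them, and Id2, Neurod2, Cacna2d2 and Dlx2 were not called with the block, whereas Hba-a2 was called lower with it (log2 fold change -5.16, edgeR adjusted p = 0.000125). Depth limits Brinp3 most, at 1 to 10 reads per control.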
